A study of Mus musculus with 5 samples.

Results

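Macrophages that carried transcripts of the complement protein C1q were found among cells sorted as neutrophils. A cell was taken as a C1q macrophage when the unique molecular identifiers (UMIs, 1 per captured mRNA molecule) of C1qa, C1qb and C1qc summed to at least 5. It also needed fewer than 3 UMIs of the alveolar macrophage genes Fabp1, Krt79 and Pparg, fewer than 5 of the liver sinusoidal endothelial genes Clec4g, Stab2 and Oit3, and fewer than 2 of the lymphocyte genes Cd79a and Cd3e. The rule was met by 813 of 36720 kept cells, those with 200 or more UMIs, 100 or more detected genes and a mitochondrial share below 20%. They were 293 of 19505 cells in the pool YO1 (1.5%, 95% exact interval 1.34 to 1.68) and 520 of 17215 cells in the pool YO2 (3.02%, 2.77 to 3.29). Another 44 cells had at least 5 C1q UMIs and were left out, 20 for the alveolar genes, 5 for the sinusoidal genes and 19 for the lymphocyte genes.

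The study asked how neutrophils differ between tissues, and sorted DAPI-negative, CD11b+ and Ly6G+ cells from lung, liver, spleen, intestine, blood and bone marrow of C57BL/6 mice at steady state under specific pathogen-free conditions. The labels give an age of 10 weeks for the young animals, where the series' design gives 8 weeks, and the aged animals had reached 20 months. No genetic change or treatment is named in the labels, and neither the number of mice in a pool nor whether the rounds used different mice is stated. The experiment was run in 2 rounds, YO1 and YO2, each with young and old cells of several tissues tagged and mixed in 1 BD Rhapsody cartridge, a microwell device that adds a cell label and a UMI to each transcript. No barcode used here could be tied to a tissue or an age, so the macrophages of all tissues and both ages were described together. C1q, alveolar, sinusoidal and lymphocyte UMIs chose the cells, so all levels are descriptions, given for both pools in the order YO1, YO2, with no test. Intervals cover counting error only.

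C1q is the recognition unit of the classical complement pathway: it binds antibody on immune complexes, dying cells and some microbes, and starts the cleavage of complement. Its A, B and C chains assemble together, and, unlike most complement proteins, which the liver makes, C1q comes mainly from macrophages and related myeloid cells. Tissue macrophages clear dying cells, including aged neutrophils, and take on programmes of their organ: Kupffer cells of the liver express Clec4f and Vsig4, red pulp macrophages of the spleen and their bone marrow counterparts express Spic and Vcam1, and macrophages recently derived from monocytes retain the chemokine receptor Ccr2.

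The genes of the 3 chains lie side by side on the minus strand of mouse chromosome 4 in the GRCm38 (mm10) build, with C1qb at chr4:136880129-136886187, C1qc at chr4:136889804-136893065 and C1qa at chr4:136895917-136898803. Because these chains define the cells, the bases upstream of the annotated genes are shown, as far as RefSeq's GRCm38.p6 promoter table holds them. They are printed on the genes' strand from chr4:136886201-136886450 for C1qb and chr4:136893066-136893164 for C1qc. C1qa is named only. Capitals mark ACTTCCT, the reverse complement of the PU.1-type motif AGGAAGT (PU.1 is an ETS factor of myeloid cells), and TGCTGA, the core of the element bound by MAF factors such as Maf.

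C1qb: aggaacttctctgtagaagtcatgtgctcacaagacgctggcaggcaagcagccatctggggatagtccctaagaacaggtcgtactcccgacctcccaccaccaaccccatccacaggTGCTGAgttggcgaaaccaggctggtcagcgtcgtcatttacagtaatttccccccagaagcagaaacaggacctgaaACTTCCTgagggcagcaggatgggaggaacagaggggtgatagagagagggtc
C1qc: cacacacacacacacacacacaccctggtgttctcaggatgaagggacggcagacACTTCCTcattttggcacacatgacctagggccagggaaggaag

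Both strands of both windows were searched for the 2 motifs, which do not overlap each other, and which were chosen after the sequences were seen. AGGAAGT was found once in each window, 66 bases upstream of the annotated start of C1qb and 44 bases upstream of that of C1qc. TGCTGA was found once, 144 bases upstream of C1qb. Among 32851 RefSeq promoter windows, 7.69% of those of 250 bases and 2.65% of those of 99 bases held AGGAAGT, and 16.1% and 6.43% held TGCTGA. The windows of 99 bases were the farthest upstream in each promoter entry, as was that of C1qc. A match is a run of letters, not a measured binding site.

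The C1q macrophages held more UMIs per cell than the other kept cells. Their median was 3295 UMIs in YO1 and 4477.5 in YO2, against 1216 and 1436 UMIs in the other kept cells, and their median mitochondrial share was 4.63% and 4.45%, against 0.881% and 0.522%. Across the series 374 cell labels occurred among the kept cells of both pools, none of them in a C1q macrophage of both. The automatic doublet threshold of Scrublet called 0 cells in each pool, so no cell was removed, and 13 (4.44%) and 28 (5.38%) C1q macrophages lay in the highest 6% of doublet scores. Neutrophil transcripts were present: the 15 genes of a neutrophil list took a median of 1.35% and 0.847% of the UMIs of a C1q macrophage, against 7.93% and 5.09% in the other kept cells. The list took 5% or more in 49 and 28 of the C1q macrophages. A UMI of Ly6g, which encodes the antigen of the sort, was found in 46 and 36 of them (15.7% and 6.92%), against 35.0% and 17.1% of neutrophil gene-rich cells, defined as C1q-free cells without Csf1r and with 5% or more of their UMIs from the neutrophil list. The part of doublets, of attached neutrophils and of engulfed neutrophil RNA in these values was not tested.

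All 3 chains were detected together in most of the selected cells, in 261 of 293 (89.1%) in YO1 and 483 of 520 (92.9%) in YO2. The median cell held 26 and 35 C1q UMIs, and the highest 111 and 187. C1qa, which encodes the A chain, averaged 1535 and 1491 CPM (UMIs of the gene scaled to a common total of UMIs) in C1q macrophages, against 3.88 and 7.95 CPM in the other kept cells. C1qb averaged 3674 and 3726 CPM against 11.4 and 26.7 CPM, and C1qc 3585 and 3761 CPM against 11.4 and 23.6 CPM. These genes chose the cells, so the gap is given by the rule. The neutrophil gene-rich cells, which should lack these genes, were also counted without the C1q-free condition, but still outside the C1q macrophages. A C1q UMI was present in 1.67% of 10053 and 2.43% of 5887 of them, at median depths of 1179 and 1353 UMIs. Cells that met the rule were left out of these shares, which are therefore limited by it. Of the kept cells, 34786 had 0 C1q UMIs, 782 had 1, 183 had 2, 70 had 3 and 42 had 4, and the number per step was about level near the minimum, with 41 cells at 5. The 40 selected cells with exactly 5 C1q UMIs had Adgre1 in 12.5% and Apoe in 72.5%, while the 37 otherwise eligible cells with 4 had Adgre1 in 29.7% and Apoe in 70.3%. The lower edge is therefore a cut through a range.

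Of the 6 marker genes of the label, the 3 C1q chains were given by the rule, Adgre1 and Apoe were high in both pools, and Vsig4 was weak. Adgre1, which encodes the macrophage surface protein F4/80, averaged 348 and 529 CPM in C1q macrophages and 51.8 and 81.2 CPM in the other kept cells, with a UMI in 60.8% and 78.7% of C1q macrophages against 3.92% and 6.70% of neutrophil gene-rich cells. Apoe, the lipid carrier apolipoprotein E, averaged 4673 and 6231 CPM against 401 and 239 CPM. Vsig4, a complement receptor of resident macrophages, had 42 and 5 UMIs in 9 and 2 C1q macrophages. It is therefore a marker of few of these cells, nearly all in YO1. Itgam, which encodes CD11b and was also part of the sort, averaged 452 and 443 CPM in C1q macrophages and 763 and 547 CPM in the other kept cells. Lists of markers of other cell types were present at low levels, though not always lower than in the other kept cells, and a few genes carried most of each. The 7 B cell genes summed to 187 and 270 CPM in C1q macrophages, against 630 and 1179 CPM in the other kept cells, and Ighm gave 173 and 619 of the 196 and 656 UMIs. The 8 liver sinusoidal endothelial genes summed to 681 and 925 CPM, against 1269 and 176 CPM, of which Fcgr2b, an inhibitory Fc receptor that macrophages also express, averaged 581 and 830.4 CPM and the defining Clec4g 6.69 and 0.823 CPM. The 8 dendritic cell genes summed to 223 and 279 CPM, against 137 and 163 CPM. Among them Bst2 had 129 and 269 UMIs, Cd209a 56 and 191 UMIs and Ccr7 1 and 1 UMIs. The 9 T and NK cell genes summed to 102 and 206 CPM against 64.1 and 33.5 CPM, and Cd4, which mouse intestinal macrophages also express, gave 90 and 480 of the 107 and 501 UMIs. Cd8a had 0 and 0 UMIs and the endothelial gene Emcn 0 and 0. The part of other cell types in the results was not tested.

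Of all genes tested, with those of the rule among them, 224 of 11681 genes (1.92%) were at least 4-fold higher in C1q macrophages than in all other kept cells in both pools, and 120 (1.03%) at least 4-fold lower. Such a call needs the ratio of CPM, with 1 CPM added to each side, to pass 4-fold in the same direction in YO1 and in YO2, among genes with at least 100 UMIs in the kept cells. Since the cells were chosen by transcripts from the same libraries, these counts are a description of the population and carry no inference. The median gene lay at a log2 ratio of 0.03 in YO1 and 0.16 in YO2, and 2648 genes had opposite signs in the pools.

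Chemokines led the higher genes. Cxcl13, the chemokine that attracts B cells to follicles, averaged 253 and 335 CPM in C1q macrophages against 0.521 and 1.75 CPM in the other kept cells, log2 ratios of 7.38 and 6.93, and it came from few cells: 21 and 38 cells held it, and 50.9% and 39.8% of its UMIs lay in a single cell. Ccl12, a monocyte attractant of mice, averaged 96.5 and 211 CPM against 0.156 and 0.798 CPM, in 34 and 92 cells. The related chemokines Ccl8, at 82.1 and 258 CPM against 0.208 and 1.72 CPM, and Ccl7, at 56.4 and 61.7 CPM against 0.208 and 0.438 CPM, were also in small groups of cells, 22 and 69 cells for Ccl8 and 12 and 44 for Ccl7. By contrast Pf4, platelet factor 4, was spread over 114 and 295 cells and averaged 453 and 635 CPM against 4.35 and 6.87 CPM, log2 ratios of 6.41 and 6.34. Ccl7, Ccl8 and Ccl12 are similar in sequence, so reads shared between them could be split by the counting.

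Receptors and surface proteins followed. Cd163, the scavenger receptor for haptoglobin-bound haemoglobin, averaged 194 and 221 CPM in C1q macrophages against 1.88 and 3.35 CPM in the other kept cells. Folr2, the folate receptor of resident macrophages, averaged 144 and 156 CPM against 0.547 and 2.47 CPM, and Ms4a7, a membrane protein of the MS4A family, 374 and 722 CPM against 3.33 and 8.06 CPM, log2 ratios of 6.44 and 6.32. C3ar1, the receptor for the complement fragment C3a, averaged 248 and 345 CPM against 4.74 and 5.25 CPM. All 4 were called in both pools. Cd209f, a C-type lectin, averaged 99.3 and 82.7 CPM against 0.391 and 0.618 CPM, Fcrls, an Fc receptor-like scavenger protein, 181 and 255 CPM against 1.41 and 4.71 CPM, and Cd4 86.0 and 198 CPM against 1.51 and 3.42 CPM. H2-M2, an MHC class Ib gene, averaged 190.1 and 119 CPM against 1.28 and 1.75 CPM.

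Enzymes and matrix genes were also among the 20 highest. The matrix metalloproteinases Mmp13 and Mmp12 averaged 83.1 and 174 CPM in C1q macrophages against 0.260 and 1.31 CPM in the other kept cells and 124 and 229 CPM against 1.33 and 4.53 CPM. Pla2g2d, a secreted phospholipase A2, averaged 92.7 and 168 CPM against 0.365 and 1.72 CPM, and Hpgds, the haematopoietic prostaglandin D synthase, 118 and 136 CPM against 1.69 and 3.01 CPM. Col14a1, a collagen gene, averaged 231 and 264 CPM against 2.06 and 1.83 CPM and was in 113 and 236 C1q macrophages, while the secreted protein gene Olfml3 averaged 65.9 and 119 CPM against 0.625 and 1.42 CPM. The heat map of levels shows that the columns of C1q macrophages stand above the other cell groups in both pools for these genes.

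**Figure D1:**
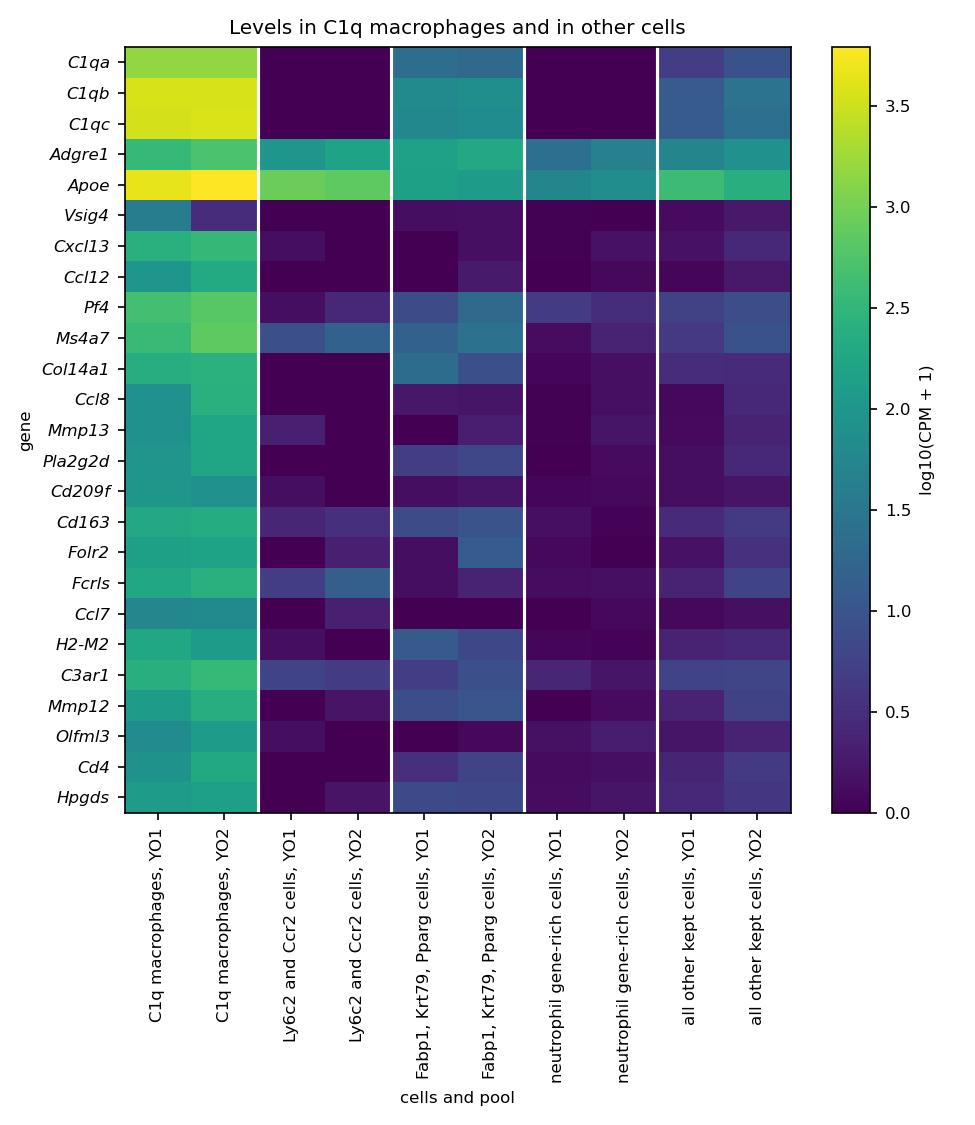
Heat map of log10(CPM + 1) for the 6 marker genes and the highest genes named in the text (rows) in C1q macrophages, C1q-free cells with Ly6c2 and Ccr2, cells with at least 3 UMIs of Fabp1, Krt79 and Pparg, neutrophil gene-rich cells and all other kept cells (columns, YO1 and YO2 each). C1q macrophages are the brightest columns in nearly every row, and Vsig4 is dim in YO2.

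The 10 lowest named genes included genes of alveolar macrophages, eosinophils, the B lineage and endothelium. Car4, a carbonic anhydrase, averaged 0.955 and 2.47 CPM in C1q macrophages against 62.7 and 131 CPM in the other kept cells, Plet1 4.78 and 3.70 CPM against 182 and 253 CPM, Krt19 0 and 2.88 CPM against 58.9 and 104 CPM and the lipid droplet gene Cidec 0.955 and 0.823 CPM against 34.2 and 48.5 CPM. These 4 were high in the cells with Fabp1, Krt79 and Pparg, where they averaged 793 and 918 CPM for Car4 and 2226 and 1939.6 CPM for Plet1, cells that the rule set aside. F7, coagulation factor VII, averaged 0 and 1.65 CPM against 20.5 and 31.8 CPM, and Ear1, an eosinophil-associated ribonuclease with near-identical copies, 0.955 and 4.11 CPM against 65.4 and 87.3 CPM. Prg2, the eosinophil major basic protein, had 5 and 0 UMIs in C1q macrophages and 202 and 15.2 CPM in the other kept cells. Ly6d, a surface protein gene of early B cells, had 0 and 0 UMIs in C1q macrophages and averaged 16.6 and 55.2 CPM in the other kept cells. Pou2af1, a B cell coactivator, had 0 and 2 UMIs in C1q macrophages and averaged 10.6 and 38.3 CPM in the other kept cells. Adgrf5, an adhesion receptor of endothelium, averaged 6.69 and 0.411 CPM against 88.9 and 16.1 CPM.

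Gene lists chosen for macrophage functions gave the following counts of genes past 4-fold in both pools, beside the 1.92% higher and 1.03% lower over all genes. Of 20 pan-macrophage genes, 10 were higher and 0 lower, with list medians of 2.29 and 2.53 on the log2 scale. Csf1r, the receptor for the growth factor M-CSF, averaged 1593 and 1864 CPM in C1q macrophages against 336 and 358 CPM in the other kept cells, Cx3cr1, the fractalkine receptor, 757 and 951 CPM against 87.2 and 77.0 CPM, and Trem2, a lipid-sensing receptor, 173 and 153 CPM against 17.1 and 14.1 CPM. Tyrobp, the shared adaptor of Trem2 and many myeloid receptors, averaged 2151 and 2449.6 CPM against 2939 and 3934 CPM. Of 20 intestinal and interstitial macrophage genes tested 10 were higher, of 17 chemokines 8, and of 10 MHC class II genes 6, with 0 lower in each. The MHC class II alpha chain gene H2-Aa averaged 13336 and 14862 CPM against 1016 and 1551 CPM, and Ciita, the transactivator of the class II genes, 135 and 215 CPM against 19.3 and 42.5 CPM. The 4 other class II genes, among them H2-DMb2 at 37.3 and 42.8 CPM against 30.7 and 58.3 CPM, did not pass in both pools.

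Outside C1q, 4 of 18 complement genes tested were higher and 0 lower, with list medians of 0.05 and 0.37 on the log2 scale. Among the 4 were C3ar1, C4b at 55.4 and 63.4 CPM in C1q macrophages against 1.85 and 1.93 CPM in the other kept cells, and C6, a part of the membrane attack complex, at 22.9 and 70.4 CPM against 0.0521 and 0.978 CPM. C3, the central protein of the cascade, averaged 126 and 56.0 CPM against 241 and 99.8 CPM, C5ar1, the C5a receptor, 628 and 722 CPM against 809 and 979 CPM, and C2, the partner of C4 in the classical pathway, 2.87 and 7.0 CPM against 2.55 and 0.772 CPM. Among 18 receptors and bridging molecules for apoptotic cells 3 were higher (Timd4, Trem2 and the integrin gene Itgb5) and 1 lower (Itgb3). Axl, a receptor tyrosine kinase for coated dying cells, averaged 531 and 504 CPM against 87.7 and 142 CPM, with log2 ratios of 2.59 and 1.82, short of 4-fold in YO2. Its ligand gene Gas6 averaged 102 and 127 CPM against 28.2 and 2.45 CPM, and Stab1 263 and 508 CPM against 69.1 and 7.05 CPM. Both were short of 4-fold in YO1, the pool in which the other kept cells had more of the sinusoidal endothelial list, 1269 CPM against 176 CPM in YO2. The part of those cells in this was not tested.

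Lipid, iron and lysosomal lists had few members past 4-fold. Of 18 lipid handling genes 3 were higher, Apoe, the cholesterol exporter Abca1 at 106 and 171 CPM in C1q macrophages against 14.7 and 25.6 CPM in the other kept cells, and the phospholipid transfer protein Pltp at 408 and 394 CPM against 40.0 and 53.8 CPM. Of 18 iron and heme genes 2 were higher, Cd163 and the biliverdin reductase Blvrb at 100.3 and 68.7 CPM against 18.5 and 15.0 CPM. Hmox1, the heme-degrading oxygenase, averaged 639 and 158 CPM against 136 and 136 CPM, a larger difference in YO1 than in YO2, and Slc40a1, the iron exporter ferroportin, 342 and 170.4 CPM against 272 and 360.3 CPM, higher in one pool and lower in the other. Of 22 lysosomal genes 3 were higher (Ctsc and Lgmn among them) and 2 lower (Ctsk and Atp6v0d2, at 16.2 and 10.7 CPM against 159 and 268 CPM). The other functional lists gave small counts: 2 of 20 cytokines and growth factors were higher (Igf1 at 177 and 172 CPM against 3.54 and 4.99 CPM, and Pdgfb), 3 of 21 scavenger and lectin receptors were higher and 1 lower (Marco), 2 of 9 Fc receptors were higher and 2 lower, and 2 of 23 macrophage transcription factors were higher (Runx3 among them) and 1 lower (Id1). The list of 15 red pulp and bone marrow macrophage genes held 4 higher and 0 lower, that of 16 Kupffer cell genes 3 higher and 1 lower.

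No gene passed in either direction among 17 monocyte genes, 14 interferon-stimulated genes, 14 immediate early genes, 10 heat shock genes or 14 cell cycle genes. The monocyte list had medians of -1.17 and -1.20 on the log2 scale. Il1b, which encodes interleukin-1 beta, averaged 3903 and 4225 CPM in C1q macrophages and 4129 and 7055 CPM in the other kept cells, and Il10 had 1 and 6 UMIs in all C1q macrophages. Transcripts of Mki67, a marker of cycling cells, were in 18 and 13 C1q macrophages, and Top2a averaged 125 and 22.2 CPM against 159 and 33.4 CPM. In YO1 the cycling genes lay mainly in cells that also held neutrophil transcripts: without the 49 cells with 5% or more of the neutrophil list, Top2a averaged 48.3 CPM.

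Some monocyte genes were lower in C1q macrophages than in cells chosen for monocyte markers. Of 7227 genes tested against 554 and 321 C1q-free cells with at least 2 UMIs each of the monocyte genes Ly6c2 and Ccr2, 187 (2.59%) were higher in C1q macrophages and 53 (0.733%) lower. The intestinal and interstitial list had 12 of 20 genes higher and 0 lower, and the monocyte list 0 of 16 higher and 7 lower. Ly6c2, which chose the comparison cells, is among those 7 by construction. Vcan, the proteoglycan versican, averaged 0 and 2.06 CPM in C1q macrophages against 46.9 and 103 CPM in these cells, Plcb1, a phospholipase C, 0 and 0.823 CPM against 58.0 and 69.9 CPM, and Hpse, heparanase, 3.82 and 8.64 CPM against 93.0 and 122 CPM. Itga1, an integrin subunit, averaged 2.87 and 3.29 CPM against 64.0 and 62.3 CPM, and Met, the receptor for hepatocyte growth factor, 1.91 and 0 CPM against 40.5 and 31.2 CPM. Several macrophage genes had few or no UMIs in the monocyte gene cells. Col14a1 had 242 and 641 UMIs in C1q macrophages and 0 and 0 in the monocyte gene cells, and Ccl12 had 101 and 512 UMIs against 0 and 0. Cd4 had 90 and 480 UMIs against 0 and 0, and Pf4 474 and 1543 UMIs against 1 and 3.

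Cells with at least 3 UMIs of the alveolar genes, 369 and 500 of the cells outside the C1q macrophages, gave a comparison within macrophages. The rule had used these genes, so the counts are description. Of 8200 genes 357 (4.35%) were higher in C1q macrophages and 253 (3.09%) lower. Stab1, a scavenger receptor, averaged 263 and 508 CPM in C1q macrophages against 2.30 and 4.64 CPM in the alveolar gene cells, and Gas6 102 and 127 CPM against 0.766 and 0.883 CPM. Mrc1, the mannose receptor, averaged 582 and 682 CPM against 809 and 798 CPM, a difference under 4-fold. The alveolar gene cells were higher in Marco, with 6.69 and 7.0 CPM in C1q macrophages against 392 and 403 CPM, and in Flvcr2, a transporter gene, with 0 and 0 UMIs against 151 and 170.2 CPM. Itgax, which encodes CD11c, averaged 231 and 305 CPM against 774 and 857 CPM, also under 4-fold.

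Among the C1q macrophages, 5 genes that mark tissue programmes were used to divide the cells into classes. A gene pair or gene was taken as present at 2 UMIs or more. Ccr2 without the other genes was present in 85 of 293 cells in YO1 (29.0%, 23.9 to 34.6) and in 162 of 520 in YO2 (31.2%, 27.2 to 35.3). Spic or Vcam1 alone marked 47 cells (16.0%, 12 to 20.8) and 104 cells (20.0%, 16.6 to 23.7). Clec4f or Vsig4 marked 10 cells (3.41%, 1.65 to 6.19) and 1 cell (0.192%, 0.00487 to 1.07), of which 3 in YO1 also had Spic or Vcam1. Spic or Vcam1 together with Ccr2 was found in 6 (2.05%) and 10 (1.92%) cells, a share that changed with the class minimum, as given at the end. No cell held Clec4f or Vsig4 together with Ccr2. The overlap that the shares alone would give was not computed. A gene of few UMIs can be missed in a cell, so these counts do not show how separate the programmes are. None of the 5 genes reached the minimum in 145 (49.5%) and 243 (46.7%) cells. The bar chart of class shares shows that the Clec4f or Vsig4 class is the one whose intervals do not overlap between the pools.

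**Figure D2:**
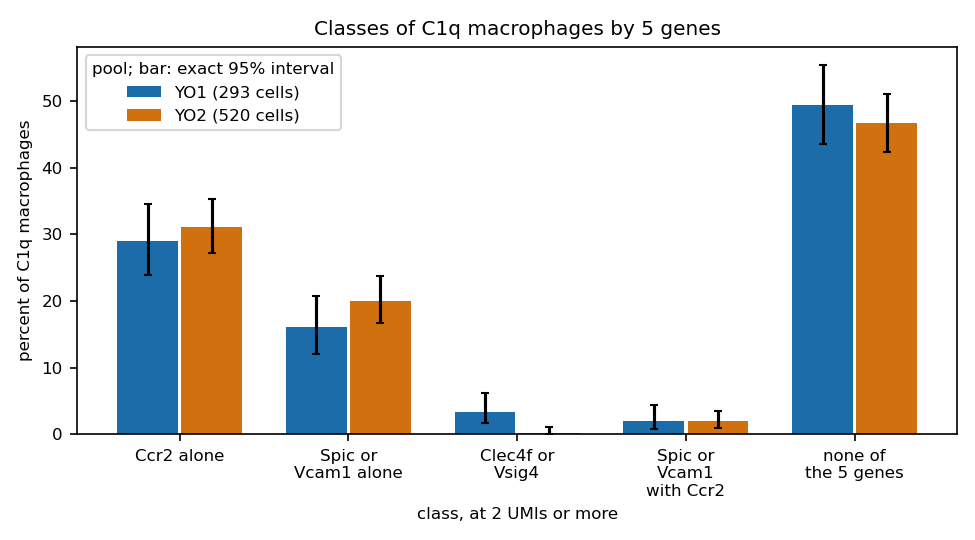
Share of C1q macrophages (percent, y axis) in each class by 5 genes at 2 UMIs or more (x axis), for YO1 (293 cells) and YO2 (520 cells). Bars are shares and lines exact 95% intervals for counting error. Cells with none of the 5 genes are 49.5% and 46.7%, and Clec4f or Vsig4 cells 3.41% in YO1 and 0.192% in YO2.

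Depth differed between the classes. Cells with none of the 5 genes had a median of 2747 and 3876 UMIs, against 3839 and 5232 in the Ccr2 class and 3582 and 4694.5 in the Spic or Vcam1 class, and a gene at a low level is missed more often in a cell of lower depth. The C1q genes summed to 8045 and 6638 CPM in the Ccr2 class, 7438 and 11991 CPM in the Spic or Vcam1 class and 9509 and 9460 CPM in cells with none of the 5. In the 10 Clec4f or Vsig4 cells of YO1 they summed to 15793 CPM.

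Fn1, Cd209a and Ms4a4c were higher in the Ccr2 class than in the other C1q macrophages. Of 4853 genes with at least 100 UMIs in C1q macrophages, 4 were higher in it in both pools (0.0824%) and 19 lower (0.392%). Among the 4 is Ccr2 itself, and among the 19 is Vcam1, both by construction. Fn1, fibronectin, averaged 76.9 and 259.6 CPM in the Ccr2 class against 1.44 and 17.7 CPM in the other C1q macrophages, log2 ratios of 5.0 and 3.80, although 10 and 26 C1q macrophages held it in all. Cd209a, a lectin of monocyte-derived dendritic cells, averaged 134 and 179 CPM against 12.9 and 19.0 CPM, log2 ratios of 3.28 and 3.17, and was held by 10 and 27 C1q macrophages, with 41.1% and 14.1% of its UMIs in a single cell. Ms4a4c, a membrane protein gene high in the Ly6c2 and Ccr2 cells (516 and 649 CPM), averaged 114 and 114 CPM against 18.7 and 17.7 CPM. Of 13 monocyte list genes 3 were higher and 0 lower, Ccr2 among them. The levels stayed far from those of the monocyte gene cells: Fn1 averaged 76.9 and 259.6 CPM in the Ccr2 class against 1178 and 1153 CPM there, and Plac8 365 and 378 CPM against 2394 and 3356 CPM.

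Genes known from resident macrophages were low in the Ccr2 class, where 4 of 8 Kupffer list genes tested were lower and 0 higher. Ccl8 averaged 5.70 and 5.52 CPM in it against 121 and 409 CPM in the other C1q macrophages, Pla2g2d 5.70 and 9.94 CPM against 137 and 262 CPM, and Fcna, which encodes the lectin ficolin A, 11.4 and 1.10 CPM against 356 and 73.4 CPM. C6 had 0 and 1 UMIs in the class, against 24 and 170 in the other C1q macrophages. Cd5l, a secreted scavenger protein of Kupffer and red pulp macrophages, had 1 and 0 UMIs against 192 and 35. The 19 lower genes also included Cd163, Folr2, Cd209f, Cd4 and Gas6. MHC class II genes did not pass (0 of 8), and H2-Aa averaged 18422 and 16150.1 CPM in the Ccr2 class, against 4962 and 15039.6 CPM in the Spic or Vcam1 class. The 8 dendritic cell genes summed to 285 and 332 CPM in the Ccr2 class and to 119 and 342 CPM in the Spic or Vcam1 class, with Flt3, a defining receptor of dendritic cells, in 2 and 8 Ccr2 class cells and Ccr7 in 1 and 0. The part of dendritic cells in the class was not tested.

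Set directly against the Spic or Vcam1 class, the Ccr2 class was higher in 20 of 4853 genes (0.412%) and lower in 23 (0.474%). By construction, Ccr2 is among the 20 and Vcam1 among the 23. S100a4, a calcium-binding protein of monocytes, averaged 473 and 330.2 CPM in the Ccr2 class against 4.94 and 18.3 CPM in the Spic or Vcam1 class. Klrb1b, a C-type lectin-like receptor, averaged 185 and 135 CPM against 0 and 6.11 CPM, and Olfm1, an olfactomedin gene, 245 and 279 CPM against 19.8 and 30.5 CPM. Tppp3 averaged 157 and 161 CPM against 4.94 and 18.3 CPM, Hepacam2 88.3 and 85.0 CPM against 0 and 8.14 CPM and the dipeptidase gene Dpep2 71.2 and 43.1 CPM against 9.88 and 6.11 CPM. The chemokine Ccl17 had 40 and 34 UMIs in the Ccr2 class and 0 and 0 in the Spic or Vcam1 class, and all its UMIs came from 2 and 9 C1q macrophages. Retnla, a secreted protein of alternatively activated macrophages, averaged 533 and 1187 CPM against 24.7 and 2.04 CPM, but 46.5% and 44.9% of its UMIs in C1q macrophages lay in a single cell of each pool. Cd163 ran the other way, with 19.9 and 28.7 CPM against 435 and 578 CPM, log2 ratios of -4.38 and -4.28.

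**Figure D3:**
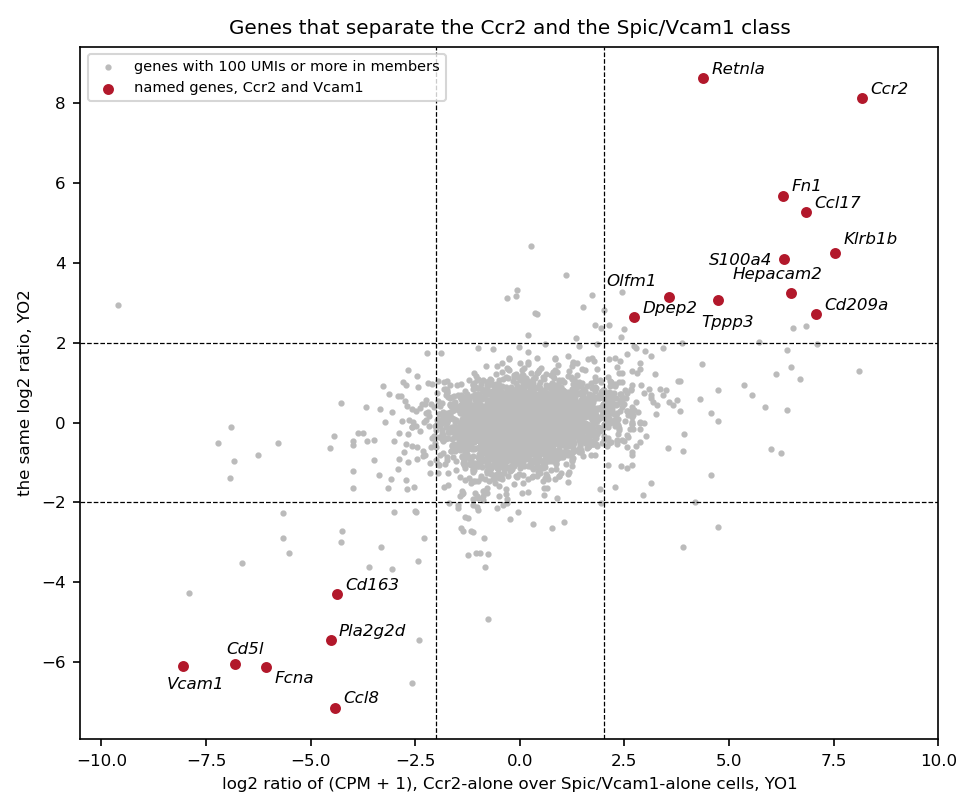
Each point is a gene; the x axis is the log2 ratio of (CPM + 1) in the Ccr2 class over the Spic or Vcam1 class in YO1 and the y axis the same in YO2. Dashed lines mark 4-fold, red points the named genes with Ccr2 and Vcam1. The 20 genes beyond 4-fold at the upper right and the 23 at the lower left are those called in both pools; where a class had 0 UMIs, the added 1 CPM sets the ratio.

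The Spic or Vcam1 class had few genes that exceeded 4-fold in both pools: 3 of 4853 were higher than in the other C1q macrophages (0.0618%) and 12 lower (0.247%). By construction, Ccr2 is among the 12, and Vcam1, an adhesion molecule that binds the integrin VLA-4, among the 3. Vcam1 averaged 1769 and 826 CPM in the class against 5.70 and 11.0 CPM in the Ccr2 class. Spic, the transcription factor induced by heme in red pulp macrophages, had 33 and 30 UMIs in all C1q macrophages, so the class rests mainly on Vcam1. Fcna averaged 830.2 and 144 CPM against 99.5 and 21.7 CPM in the other C1q macrophages, log2 ratios of 3.05 and 2.68. Cxcl13 averaged 771 and 1026 CPM against 129 and 159.9 CPM, log2 ratios of 2.57 and 2.67. A single cell held 135 of the 156 Cxcl13 UMIs of the class in YO1, and another 324 of the 504 in YO2. The Cxcl13 ratio therefore leans on a single cell in each pool. With 3 UMIs as the class minimum its log2 ratio, as a mean of both pools, was -0.91.

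Within the Spic or Vcam1 class the pools differed. Hmox1 averaged 1893 CPM in YO1 (95% interval 1708 to 2092) and 283 CPM in YO2 (238 to 334), and Slc40a1 949 CPM in YO1 (95% interval 819 to 1093) and 291 CPM in YO2 (245 to 343). H2-Aa averaged 4962 CPM in YO1 (95% interval 4659.5 to 5278) and 15039.6 CPM in YO2 (14699 to 15386), Apoe 3706 CPM in YO1 (95% interval 3446 to 3981) and 11301 CPM in YO2 (11006 to 11602) and Cx3cr1 356 CPM in YO1 (95% interval 278 to 448) and 1323 CPM in YO2 (1223 to 1429). Hmox1 and Slc40a1 were therefore higher in YO1, and H2-Aa, Apoe and Cx3cr1 in YO2. Over all C1q macrophages, the 10 highest cells held 52.0% of the Hmox1 UMIs in YO1 and 16.7% in YO2. For Slc40a1 they held 39.1% and 21.0%. The intervals do not cover such spread between cells. Other genes of the iron and heme list ran both ways. The ferritin chain gene Fth1 averaged 2550.04 CPM in YO1 and 4937 CPM in YO2, and Cd163 435 and 578 CPM. Ftl1, also a ferritin chain gene, averaged 3108 CPM in YO1 and 2222 CPM in YO2, and Creg1 939 and 415 CPM. Unlike Apoe, the lipoprotein lipase gene Lpl of the lipid list was higher in YO1, at 766 CPM in YO1 and 173 CPM in YO2. Neutrophil precursor transcripts moved with the pool: Ngp, which encodes neutrophilic granule protein, averaged 26266 CPM in YO1 and 1046 CPM in YO2, and the 15 neutrophil genes summed to 129889 and 13719 CPM. At least 1 UMI of Ngp, Ltf or Camp was in 29 of 47 YO1 cells (61.7%) and 13 of 104 YO2 cells (12.5%), with up to 930 UMIs in a cell. Top2a averaged 459.6 and 40.7 CPM.

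Without the 20 YO1 and 9 YO2 cells of the class in which the neutrophil list took 5% or more of the UMIs, 27 and 95 cells remained. Ngp then averaged 127 and 15.1 CPM and Top2a 14.1 and 43.2 CPM. Hmox1 averaged 2210 and 251 CPM and Slc40a1 1449.9 and 261 CPM, a wider gap between the pools than with these cells. For H2-Aa the gap narrowed, with 12669 and 15960.5 CPM, and likewise for Apoe (8024 and 11955 CPM) and Cx3cr1 (957 and 1404 CPM). C1qb in YO1 averaged 2891 CPM with them and 6095 CPM without. The part of neutrophil transcripts in these gaps was not tested. Tissue proportions and pool cannot be told apart here, since the barcodes carry no tissue.

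**Figure D4:**
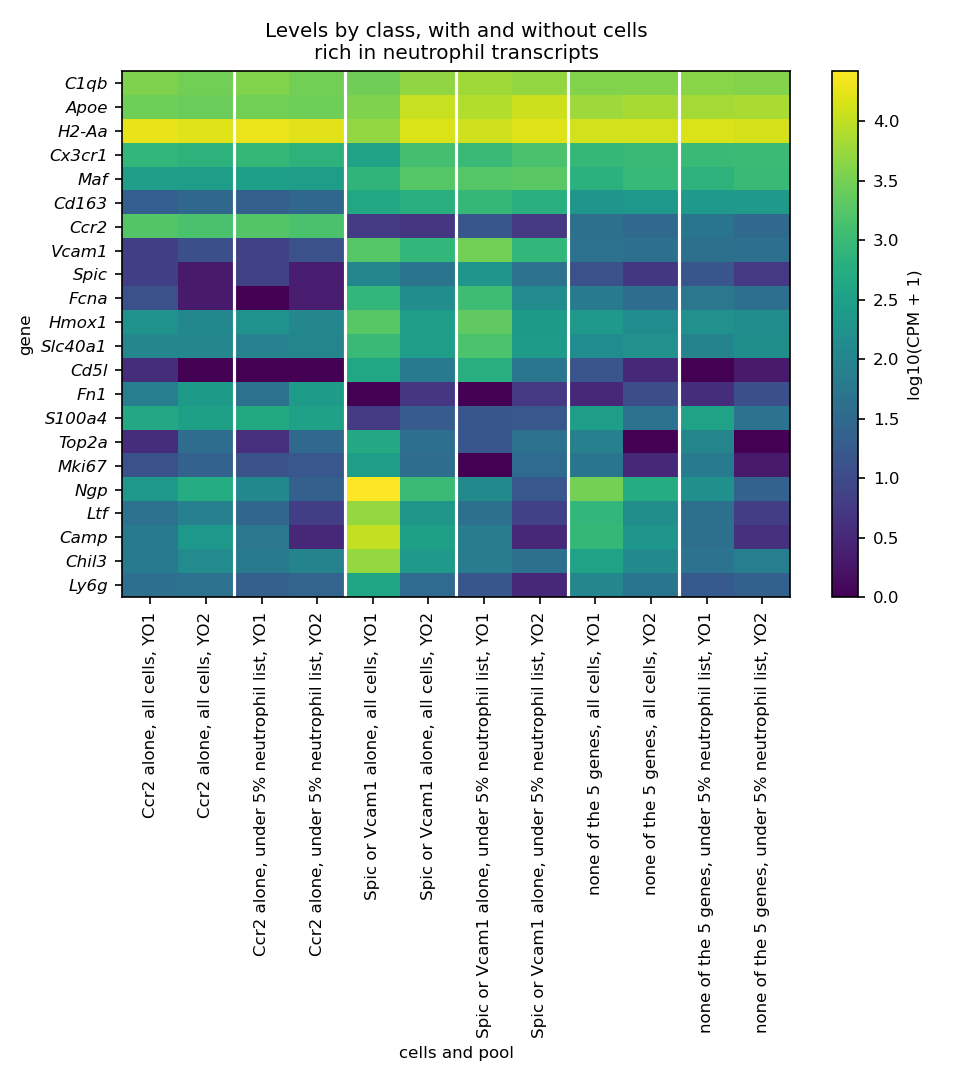
Heat map of log10(CPM + 1) for 22 genes (rows) in 3 classes of C1q macrophages, with all cells and with only the cells in which a neutrophil list took under 5% of UMIs, for YO1 and YO2 (columns). The bright Ngp, Ltf, Camp and Chil3 cells of the Spic or Vcam1 class in YO1 darken when neutrophil-rich cells are left out, while Hmox1 and Slc40a1 stay higher in YO1 than in YO2.

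Hmox1 and Slc40a1 averaged more in cells with Spic, though short of 4-fold in YO2. The 24 and 28 C1q macrophages with any Spic UMI averaged 2450.6 and 511 CPM of Hmox1, against 403 and 137 CPM in the C1q macrophages without Spic. Slc40a1 averaged 1035 and 278 CPM against 252 and 164 CPM. Neutrophil precursor and cycling transcripts moved with Spic in YO1: Ngp averaged 12874 and 14.6 CPM in cells with Spic against 5615 and 669.8 CPM in those without, and Mki67 289.8 and 0 CPM against 52.9 and 17.9 CPM. Their part in the result was not tested. Across C1q macrophages thinned to 1000 UMIs each (282 and 502 cells), Vcam1 and Hmox1 had correlations of 0.60 and 0.29, and Vcam1 and Slc40a1 of 0.58 and 0.17. Both correlations of Vcam1 were lower in YO2. Spic itself had correlations of 0.11 and 0.31 with Hmox1 and of 0.26 and -0.04 with Slc40a1, each weak in 1 pool. Cells of 1 pool share a library, and the values are descriptions.

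The Clec4f or Vsig4 class was nearly confined to YO1. Clec4f, a lectin of Kupffer cells, had 127 UMIs in 10 C1q macrophages of YO1, and 12 UMIs in 11 other kept cells of that pool. In YO2 it had 0 UMIs in all kept cells, which over 520 C1q macrophages allows a share of cells with a UMI of up to 0.577%. In the 10 YO1 cells of the class Clec4f averaged 5278 CPM, and the Kupffer genes Cd5l, Fcna and C6 averaged 4105 CPM, 2095 CPM and 586 CPM in that order. Timd4, a receptor for phosphatidylserine on dying cells, averaged 335 CPM, Slc40a1 2555 CPM, Hmox1 2849 CPM and Apoe 15668 CPM, while Ccr2 and Cx3cr1 had 0 UMIs. The cell with the most Clec4f held 31 UMIs of it, with 12 of Vsig4, 23 of Cd5l and 10 of Fcna. The 1 YO2 cell of the class had 4 Vsig4 UMIs and 0 of Clec4f and Cd5l, and it had Folr2 and Lyve1 at 4041 and 2748 CPM. With so few cells, gene calls were not made for this class.

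Cells with none of the 5 genes were the largest class and had 0 genes past 4-fold higher. Of 4853 genes 0 were higher (0%) and 6 lower (0.124%) than in the other C1q macrophages, among them Ccr2 and Vcam1 by construction. Fn1 averaged 2.29 and 10.3 CPM in them against 44.3 and 173 CPM, Cd5l 13.7 and 2.06 CPM against 307 and 22.6 CPM, Plac8 61.7 and 32.9 CPM against 285 and 249 CPM and Ear2, a ribonuclease close to Ear1, 20.6 and 14.4 CPM against 112 and 87.1 CPM. Their H2-Aa level was 13177 and 13334 CPM, that of Cx3cr1 867 and 995 CPM and that of Folr2 265 and 188 CPM.

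Another division, which partly followed these classes, was made by 4 other genes. It lay between cells with at least 2 UMIs of Folr2 or Lyve1 and cells with at least 2 UMIs of the metalloproteinases Mmp12 or Mmp13. These genes were picked after their values were seen. The Folr2 or Lyve1 group had 28 cells in YO1 (9.56% of C1q macrophages) and 60 in YO2 (11.5%). The Mmp12 or Mmp13 group had 55 (18.8%) and 147 (28.3%), and 0 cells were in both. The overlap that these shares alone would give was not computed. Of the Ccr2 class, 0 of 85 and 3 of 162 cells had Folr2 or Lyve1, while 27 (31.8%) and 63 (38.9%) had Mmp12 or Mmp13. Of the Spic or Vcam1 class, 5 (10.6%) and 29 (27.9%) had Folr2 or Lyve1, and 3 (6.38%) and 14 (13.5%) had Mmp12 or Mmp13. Folr2 and Lyve1, a hyaluronan receptor of macrophages beside vessels, had correlations of 0.58 and 0.59 across thinned cells. Mmp12 and Mmp13 had correlations of only 0.11 and 0.11, so that group joins 2 weakly linked genes. Between the groups, Folr2 had correlations of -0.07 and -0.09 with Mmp12, and of -0.07 and -0.09 with Mmp13.

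Cd163, Cbr2 and Pf4 were higher in the Folr2 or Lyve1 cells of both pools, and Itgax, Ccr2 and H2-Aa in the Mmp12 or Mmp13 cells. Cd163 averaged 984 CPM in YO1 (793 to 1207) and 921 CPM in YO2 (825 to 1026) in Folr2 or Lyve1 cells, against 28.7 CPM in YO1 (10.5 to 62.4) and 47.7 CPM in YO2 (33.4 to 66.1) in Mmp12 or Mmp13 cells. These intervals cover counting error and not the spread between cells. Over all C1q macrophages, the 10 highest cells held 48.3% and 32.5% of the Cd163 UMIs. Cbr2, a carbonyl reductase, averaged 1305 and 991 CPM against 19.1 and 7.96 CPM, Mrc1 1648 and 1531 CPM against 368 and 415 CPM, and Pf4 1797 and 1954 CPM against 353 and 350 CPM. Apoe averaged 12036 and 10404 CPM against 2330.4 and 4744 CPM, Ccl8 385 and 629 CPM against 4.78 and 117 CPM, and the growth factor gene Igf1 332 and 353 CPM against 81.2 and 121 CPM. The other direction was seen for Itgax, with 21.4 and 64.0 CPM against 435 and 559.5 CPM, for Ccr2, with 10.7 and 114 CPM against 998 and 611 CPM, and for H2-Aa, with 7981 and 9274 CPM against 19321 and 17327 CPM. Cx3cr1 did not separate them, with 749 and 1172 CPM against 912 and 940.1 CPM, and C1qb averaged 5167 and 4253 CPM against 4064 and 3801 CPM.

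**Figure D5:**
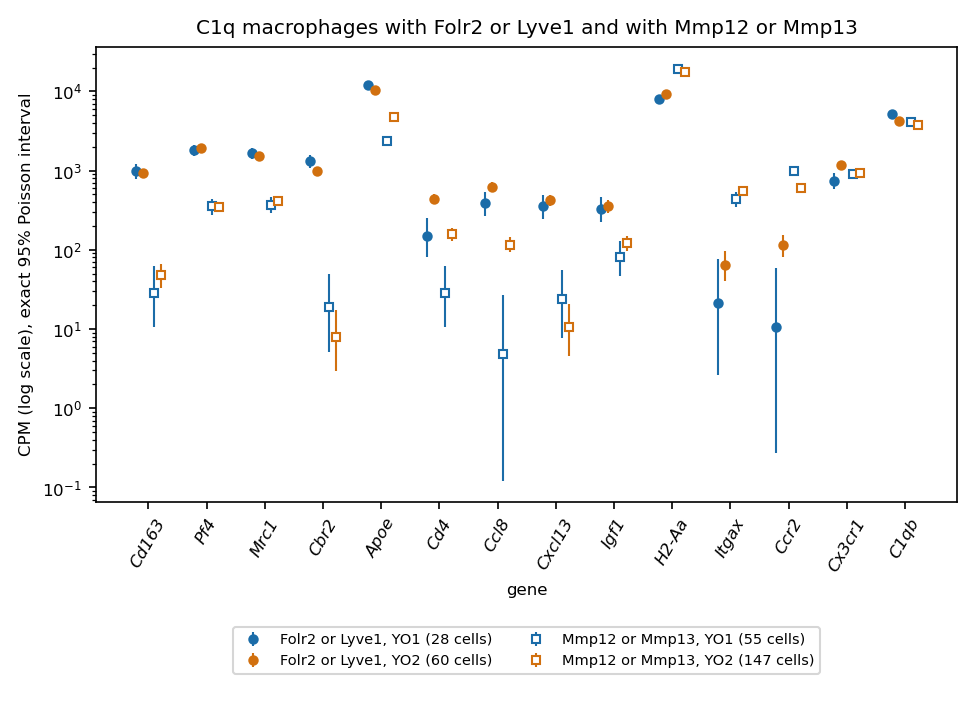
CPM on a log axis (y) for 14 genes (x) in C1q macrophages with at least 2 UMIs of Folr2 or Lyve1 (filled circles, 28 and 60 cells) and of Mmp12 or Mmp13 (open squares, 55 and 147 cells) in YO1 and YO2; lines are exact 95% Poisson intervals. Cd163, Cbr2, Pf4 and Mrc1 lie higher in the circles of both pools, and Itgax, Ccr2 and H2-Aa in the squares.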

How the data were processed

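Single-cell mRNA was measured in 2 pools, YO1 and YO2, treated as the 2 repeats of 1 design. The values are UMI counts per gene and cell that the authors deposited, on the mm10 build per the submitters' processing notes, which do not name a counting tool. The antibody and sample tag libraries are not analysed here. YO1 held 20352 barcodes and 39713846 UMIs, and YO2 17720 barcodes and 41839786 UMIs. Kept cells went down to 200 UMIs in YO1 and to 496 in YO2, so the pools had different floors.

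UMIs were summed over the cells of a group within a pool and divided by the group's total to give CPM. Log2 ratios used a pseudocount of 1 CPM on each side, which understates the change of low genes, and needed 100 UMIs in the cells compared. A gene was called at 4-fold in the same direction in both pools. With 1 library per pool and cells chosen by their transcripts, no test was run and no p-value is given. Intervals are exact 95% Poisson or Clopper-Pearson intervals. Cells were thinned to 1000 UMIs for correlations. The ratio script was tested on simulated data.

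The genes named are the 20 highest and 10 lowest called genes that averaged at least 20 CPM where higher, ranked by the pool nearer to 0, and the 10 highest and 5 lowest per class, leaving out genes of the rule, numbered gene models, and ribosomal, mitochondrial and immunoglobulin genes. List members were named as examples, and some genes are not reported here. The members and gene lists were chosen with earlier results of these data known. Python 3.11.15, numpy 2.4.6, pandas 2.3.3, scipy 1.17.1 and scanpy 1.11.5 were used, and edgeR 4.0.16 in R 4.3.3 only for the TMM scaling of an alternative. Alternatives changed the C1q minimum, cell filters, class minimum, pseudocount, gene filter, scaling and averaging, left out cells with high doublet scores or neutrophil transcripts, or left out a pool.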

Additional observations from a re-analysis of the deposited data

How the results depend on the processing

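Across 16 settings, 142 of 182 shares and gene counts stayed within their limits, and 612 of 645 log2 ratios of named genes kept their call. In YO1 alone, 6 of the 8 named genes of the Ccr2 class, 3 of the 7 of the Spic or Vcam1 class and 2 of the 4 of the cells with none of the 5 genes were no longer called, against 1 in each class in YO2 alone. All of these named genes were past 4-fold in each pool, but a call also needed 100 UMIs in the cells compared. Those below 100 UMIs ran from 24 for C6 to 97 for Pla2g2d in YO1. In YO2 they were Cd5l with 35 and Ccl17 with 54. The lost calls are therefore no sign of a ratio short of 4-fold. With 3 UMIs as the class minimum, Cxcl13 turned to -0.91 on the log2 scale in the Spic or Vcam1 class, as a mean of both pools. The cause was not tested. C1q macrophages were 2.21% of kept cells, 2.48% with a C1q minimum of 3 UMIs, 1.91% with 10, 2.01% without cells rich in neutrophil transcripts, and 1.5% to 3.02% leaving out a pool.

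Against the other kept cells, 224 genes were higher, 482 with the mean over cells of CPM, and 226 to 323 in a single pool. Of the 120 lower, the count was 194 without the neutrophil-rich cells, 28 with a pseudocount of 5 CPM, and 333 to 390 in a single pool. In the Ccr2 class 4 genes were higher and 19 lower, 7 and 54 with a gene filter of 20 UMIs, and 1 to 11 higher and 28 to 32 lower in a single pool. In the Spic or Vcam1 class 3 were higher, 8 without neutrophil-rich cells, 5 with 1 UMI as the class minimum, 15 with a gene filter of 20 UMIs, 6 with the mean over cells, and 11 to 37 in a single pool. Its 12 lower genes became 46 with a gene filter of 20 UMIs and 21 to 54 in a single pool. In cells with none of the 5 genes 0 were higher, 0 to 3 in a single pool, and 6 lower, 10 with a gene filter of 20 UMIs and 10 to 10 in a single pool.

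The Ccr2 class was 30.4% of C1q macrophages in both pools together, 33.7% with 1 UMI as the class minimum and 26.8% after thinning to 1000 UMIs. The Spic or Vcam1 class was 18.6%, 25.6% with 1 UMI, 13% with 3 UMIs and 14.2% after thinning. Both together were 1.97%, 4.92% with 1 UMI and 0.615% with 3. None of the 5 genes reached the class minimum in 47.7%, 33.9% with 1 UMI as the minimum, 57.7% with 3 and 56.8% after thinning. Clec4f or Vsig4 marked 1.35%, and 0.192% to 3.41% in a single pool. Vcam1 alone in place of Spic or Vcam1 was chosen after seeing the data. No paired analysis was possible because the results come from no test, and each ratio was already taken within a pool. Calls need 100 UMIs in the cells compared, so genes of fewer UMIs could not be called.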
